A study of Rosa roxburghii with 15 samples.

Results

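Of the 63727 unigenes assembled from 5 tissues of Rosa roxburghii, 154 (0.242%) were listed only in mature fruit. A unigene stands for 1 or more transcript sequences put together from the reads and treated as 1 gene. The 154 were chosen by their FPKM (a read level set relative to transcript length and to the mapped reads of the library) in all 15 libraries, with at least 1 FPKM in each of the 3 mature fruit libraries and exactly 0 in the 12 libraries of leaf, stem, flower and young fruit. Their absence from the other tissues is therefore the condition of selection, and no test was made on their levels. They were 0.813% of the 18941 unigenes at 1 FPKM or more in all 3 mature fruit libraries.

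Wild R. roxburghii plants grown outdoors in pots were sampled, with no treatment and 3 libraries per tissue. Leaf libraries came from mature leaves without petioles, stem libraries from new shoots, flower libraries from open flowers, and the fruit libraries from hips taken 50 days (young) and 120 days (mature) after flowering. The harvest was in May for the 3 vegetative and floral tissues, in July for young and in September for mature fruit, so tissue or fruit stage and month cannot be told apart. The paper describes 3 biological replicates per tissue, whereas the labels describe 2 biological replicates of 3 plants each, so p-values measure only the spread between these libraries, which may be technical.

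R. roxburghii is a wild rose whose fleshy fruit is a hip, the swollen floral cup that encloses the achenes, and it is known for a very high ascorbate content. When a fleshy fruit ripens, cell walls soften, starch and acids give way to sugars, and pigments and aroma compounds are made, each through genes that are switched on late. In an assembly made without a genome, Trinity sorts overlapping sequences into clusters, and alleles, splice forms, close paralogs and fragments of 1 gene can each become unigenes of a cluster. A unigene found in 1 tissue may thus be a gene, an allele or a form of a gene, and the sequences needed to tell these apart were not used here.

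The sources pair no gene name with the unigenes other than MYB transcription factors, so the members are described by their rank in mean FPKM in mature fruit, and only 2 of them by identifier. None of the 162 MYBs found among the unigenes was a member. For the same reason no markers of fruit tissues could be used to check the labels. RNA from a whole tissue was measured, and fewer cells of a type cannot be told apart from less RNA per cell.

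The 15 libraries summed to between 490161 and 563597 FPKM, and their depth relative to mature fruit library 1, read from the steps between low values, was 0.856 to 1.29. The depth behind a single FPKM value is unknown, so no counting interval is given and a 0 says no more than that a unigene was listed at 0. Mature fruit library 1 stood apart from the other mature fruit libraries. It listed 36595 unigenes above 0, against 39454 in library 2 and 38981 in library 3, although its relative depth of 1 was above their 0.877 and 0.898. When the rule was applied without library 1 it found 1018 unigenes, of which 839 were at 0 in library 1 and 25 lay between 0 and 1 FPKM there. Without library 2 it found 183 unigenes and without library 3 it found 195, so library 1 decided the number of members far more than the others did.

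The same rule turned on the other tissues found 10 unigenes for leaf, 12 for stem, 30 for flower and 285 for young fruit. With all libraries in the rule, mature fruit thus lay between young fruit and flower in the number of unigenes listed in 1 tissue alone. That place depended on mature fruit library 1, since without it the rule found 1018 unigenes. Counts with 1 library of another tissue's own left out were not made for that tissue.

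The members were expressed at low to moderate levels. Mature fruit library 1 had a median of 3.49 FPKM over the 154 members, from 1.002 to 45.9. Library 2 had a median of 3.15 FPKM, from 1.03 to 23.7, and library 3 one of 3.09 FPKM, from 1.05 to 26.3. Summed over the members, the 3 libraries held 869, 701 and 657 FPKM, or 0.177%, 0.136% and 0.129% of each library's total.

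By their mean over the 3 libraries, 35 members lay at 1 to 2 FPKM, 71 at 2 to 5, 34 at 5 to 10 and 14 at 10 or more. Members at 10 FPKM or more were 9.09% of the 154, whereas 46.1% of the 18941 unigenes at 1 FPKM or more in mature fruit reached that level. The median of the means was 3.52 FPKM in the members and 8.83 in the 18941. Even the member with the highest mean was exceeded by many other unigenes, since 81.8% of the 18941 had a lower mean. The 10 highest members held 23.2% of the members' summed mean level.

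**Figure D1:**
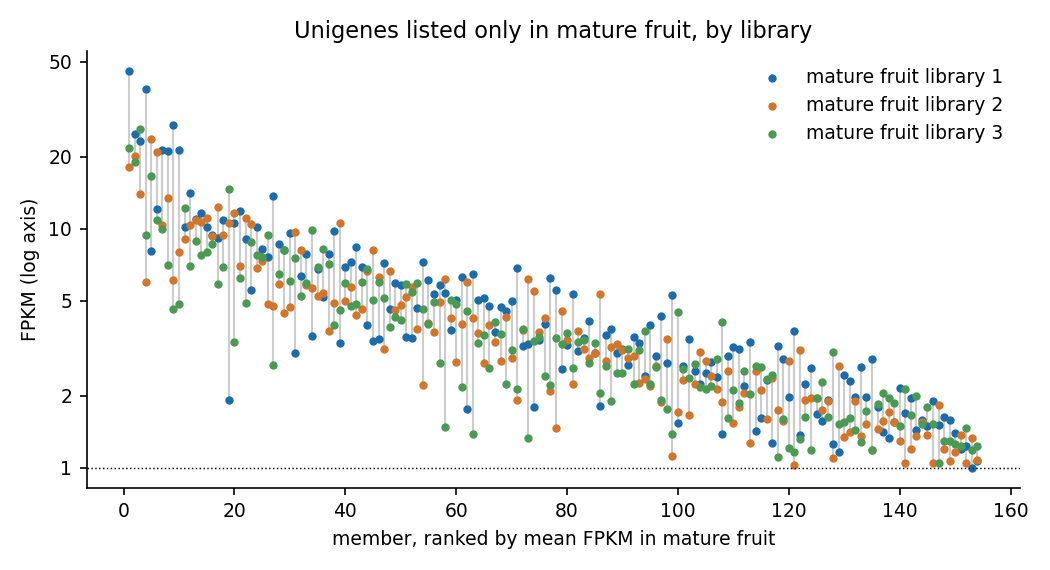
FPKM of each of the 154 members in mature fruit libraries 1, 2 and 3 (points, log axis), with members ranked by mean FPKM along the horizontal axis and grey lines joining the libraries of a member. The dotted line is the minimum of 1 FPKM, and several of the members with the highest means have library 1 far above or below the other libraries.

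The member with the highest mean was DN147428_c0_g2, with 45.9 FPKM in library 1, 18.2 in library 2 and 21.7 in library 3, a mean of 28.6 ± 15.1 (SD, n = 3). Libraries 2 and 3 lay close together and library 1 well above them. The member ranked 2 had 25.01, 20.1 and 19.0 FPKM in libraries 1, 2 and 3, a narrower spread in the same direction. The member ranked 3 had 23.3, 14.02 and 26.3 FPKM, here with library 2 lowest. The member ranked 4 had 38.5 FPKM in library 1 but 5.99 in library 2 and 9.42 in library 3, so its mean was carried by library 1. The opposite order was seen for the member ranked 5, with 8.04, 23.7 and 16.7 FPKM.

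DN145320_c6_g4, ranked 19, had the largest ratio between libraries, 7.61, with 1.93 FPKM in library 1, 10.6 in library 2 and 14.7 in library 3. Libraries 2 and 3 resembled each other and library 1 was low. The member ranked 9 was the reverse, with 27.3 FPKM in library 1, 6.13 in library 2 and 4.61 in library 3. Replicates of mature fruit thus differed several fold in both directions for individual members.

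Over all members, the highest library exceeded the lowest by a median factor of 1.73, against 1.28 for the 18941 unigenes at 1 FPKM or more in mature fruit. The ratio reached 2 in 53 members (34.4%), against 9.23% of the 18941, and reached 4 in 9 members (5.84%), against 0.876%. The wider spread was not confined to low levels. Among unigenes with a mean of 1 to 2 FPKM the median ratio was 1.47 in the members and 1.46 in the 18941. Among those with a mean of 10 FPKM or more it was 2.08 in the members and 1.20 in the 18941. At high level the members were thus the more variable. At the lowest level the minimum of 1 FPKM in each library bounds the ratio in both sets, so their likeness there says little.

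Library 1 was the highest for 82 members (53.2%), close to the 53.6% of the 18941, library 2 for 33 and library 3 for 39. The log2 ratio of library 1 to the mean of libraries 2 and 3 had a median of 0.22 and an SD of 0.76 over the members, against 0.11 and 0.45 over the 18941. With libraries scaled by the median of ratios these medians were 0.03 and -0.07, so the lean of each set towards library 1 depended on the scaling, which shifts both alike. Library 1 was more than 2-fold above the mean of the other libraries in 22 members and more than 2-fold below it in 10. Between libraries 3 and 2 the median log2 ratio was 0.03 (SD 0.63), against -0.01 (SD 0.35) in the 18941. The wide spread of the members was therefore present between libraries 2 and 3 as well. Pearson's r of log2 FPKM across the 154 members was 0.725 for libraries 1 and 2, 0.702 for 1 and 3 and 0.815 for 2 and 3, where unigenes are not independent and the members span a narrower range of levels than the 18941.

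The threshold of 1 FPKM divided a continuous series of unigenes. Just inside it, 8 members had a lowest library under 1.1 FPKM, with means of 1.13 to 1.98. Just outside it, 19 unigenes at 0 in the other tissues had a lowest mature fruit library of 0.907 to 0.991 FPKM, with means of 0.988 to 4.21. In all, 634 unigenes were above 0 in each mature fruit library and at 0 in the 12 others, of which the members were 24.3%.

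The condition of 0 in the other tissues likewise had near neighbours. Of the 18941 unigenes at 1 FPKM or more in mature fruit, 113 were above 0 in only 1 of the 12 other libraries, and 17399 were above 0 in all 12. For 80 of the 113 that 1 library was of young fruit, for 14 of flower, for 10 of leaf and for 9 of stem. The value in the single young fruit library ran from 0.0131 to 5.34 FPKM with a median of 0.173. Young fruit libraries 1, 2 and 3 held 21, 27 and 32 of the 80. Most of the 113 were thus listed in a single library of the earlier fruit stage. Young fruit libraries also listed the most unigenes above 0 in general, 43593 to 44904, against 36317 to 39812 in leaf, stem and flower libraries. Whether the 80 exceed what this would give was not tested.

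**Figure D2:**
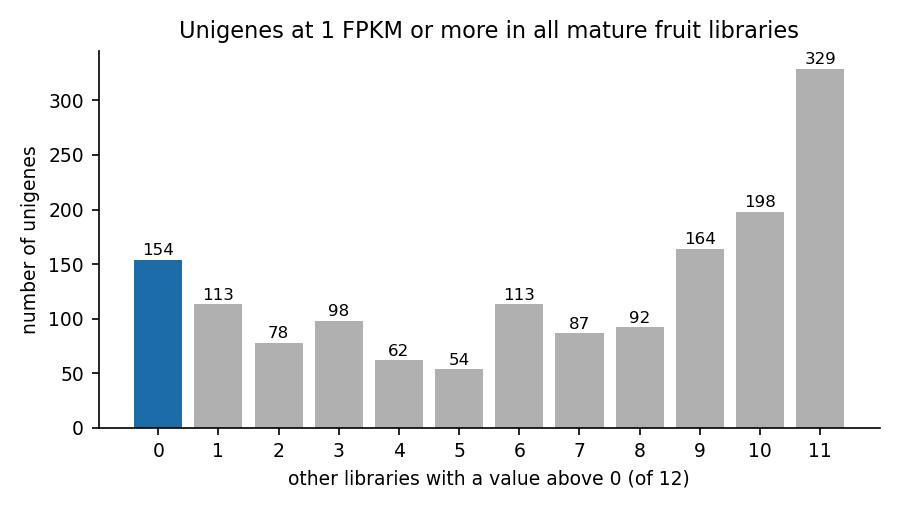
Number of unigenes at 1 FPKM or more in all 3 mature fruit libraries (vertical axis) by the number of the 12 other libraries in which they were above 0 (horizontal axis), with the 154 members in blue. The 17399 unigenes above 0 in all 12 are left out for scale, and the shown counts run from 54 at 5 libraries to 329 at 11.

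Unigene identifiers carry the number of the Trinity cluster they came from, called a component here, and a further number for a part of that cluster, called a subcomponent. Component membership was no part of the rule. The 154 members lay in 145 components, of which 9 held 2 members. Of the members, 142 (92.2%) shared their component with at least 1 other unigene, against 66.1% of all unigenes and 80.6% of the 18941 at 1 FPKM or more in mature fruit. Components of 8 or more unigenes held 47.4% of the members, 33.7% of the 18941 and 25.5% of all unigenes, and the median component size was 7 for members, 6 for the 18941 and 4 for all. In the same subcomponent, 76.6% of the members had another unigene, against 67.6% of the 18941 and 54.0% of all.

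The unigenes that met the rule in mature fruit libraries 2 and 3 but were at 0 in library 1 had a different make-up. Of these 839, 76.3% were alone in their component and 2.26% lay in components of 8 or more. They had a median mean of 2.21 FPKM and a highest mean of 63.2 FPKM, and summed to 3534 FPKM in library 2 and 3104 in library 3. Only 1 component held both a member and one of the 839. With library 1 left out of the rule, the share of unigenes with others in the component was 35.0% instead of 92.2%. The large share of members in big components thus depended on library 1 being in the rule.

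Young fruit gave an intermediate picture. Of the 285 unigenes listed in young fruit alone by the same rule, 48.8% were alone in their component and 4.56% lay in components of 8 or more.

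**Figure D3:**
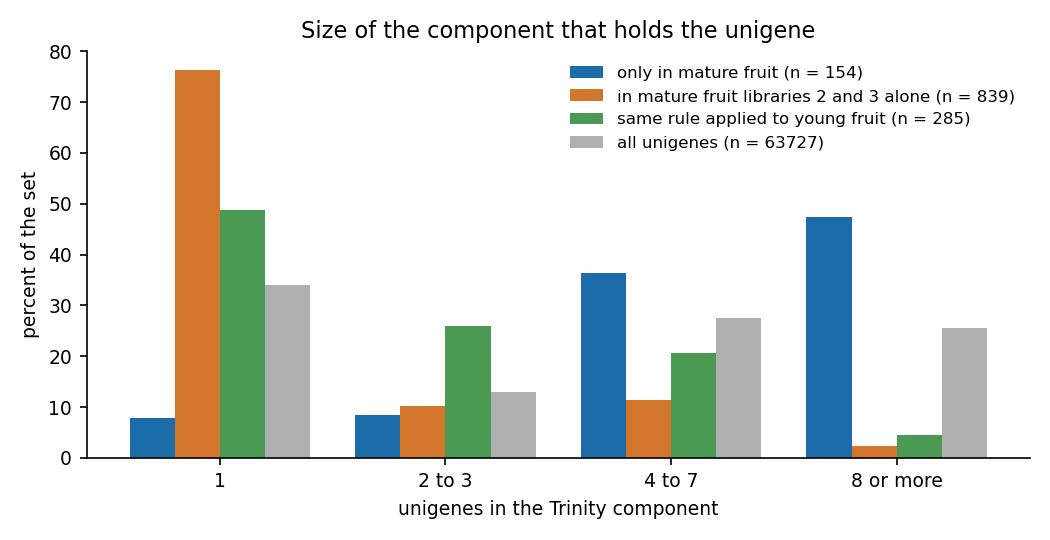
Percent of each set of unigenes (vertical axis) by the number of unigenes in the Trinity component (horizontal axis), for the 154 members, the 839 unigenes of mature fruit libraries 2 and 3 alone, the 285 found by the same rule in young fruit, and all 63727 unigenes. Components of 8 or more hold 47.4% of the members and 2.26% of the 839.

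Material from another organism could be looked for only through 3 listed MYBs whose best database match was an insect protein. DN133537_c0_g1 was at 0, 0.149 and 0.354 FPKM and DN125764_c0_g1 at 0, 0.546 and 1.07 FPKM in mature fruit libraries 1, 2 and 3, with 0 in the other 12 libraries. DN28565_c0_g1 was at 0 in all 6 fruit libraries. Summed over the 3, mature fruit libraries held 0, 0.694 and 1.42 FPKM, leaf 0.0611 to 0.299, flower 0.0320 to 0.140, and stem and young fruit 0. DN133537_c0_g1 and DN125764_c0_g1 were thus listed in mature fruit libraries 2 and 3 alone, while DN28565_c0_g1 was listed in leaf and flower. None of the 3 was at 1 FPKM or more in both mature fruit libraries 2 and 3, so none was among the 839. None was a member either. Whether the 839 came from another organism was not tested.

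The 12 members that were alone in their component were low, with means of 1.13 to 3.56 FPKM and a median of 1.73, and the highest of them ranked 74. The 142 others had means of 1.25 to 28.6 FPKM with a median of 3.62. Of the 93 members with at least 2 FPKM in every mature fruit library, none was alone. Among the 18941, 19.4% were alone, but their levels and their share at 2 FPKM or more were not taken. Whether lone unigenes are low in general was therefore not tested.

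The 133 components with members and other unigenes held 883 such others, called mates here, with a median of 6 per component and at most 16. In 107 of the 133 components at least 1 mate was at 1 FPKM or more in all 12 libraries of the other tissues. The components of the members were thus mostly expressed in leaf, stem, flower and young fruit too, through unigenes other than the member. The same share was not taken over other components. Of the mates, 244 (27.6%) were at 1 FPKM or more in all 15 libraries, and 21 were at 0 in all 15. Of all unigenes, which include those alone in their component, 22.9% were at 1 FPKM or more in all 15.

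In mature fruit the members made up a median of 15.5% of the summed FPKM of their component, with quartiles of 6.18% and 38.9%. They exceeded 50% in 21 components and stayed under 10% in 54. In 37 components the members' level was above that of the highest mate. The mates' summed level had a median of 20.03 FPKM in leaf, 25.1 in stem and 26.4 in flower. It was 25.04 FPKM in young fruit and 23.1 in mature fruit. Compared within each component, the mates' sum was higher in mature fruit than in leaf in 92 of the 133 components, than in stem in 88, than in flower in 76 and than in young fruit in 80. The median log2 ratio of mature fruit to the other tissue was 0.41 for leaf, 0.29 for stem, 0.13 for flower and 0.17 for young fruit. Over the 8504 components of 2 or more unigenes it was 0.25, 0.05, 0 and -0.04. Those sums took in every unigene of a component, whereas the mates' sums leave the members out.

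The component of DN147428_c0_g2 held 1 mate, which was at 15.3 ± 3.83 FPKM in mature fruit, beside 16.9 ± 1.82 in young fruit, 19.1 ± 0.434 in flower, 15.3 ± 1.11 in stem and 11.1 ± 0.869 in leaf (SD, n = 3 each). The mate did not pass the test between mature fruit and any other tissue, and the member was 65.2% of the component's level in mature fruit. DN145320_c6_g4 had 11 mates and was 9.93% of its component. Within its own subcomponent the sum of unigenes in mature fruit libraries 1, 2 and 3 was 4.57, 13.6 and 17.2 FPKM, with at most 0.387 FPKM in any other library. The member was 77.1% of that sum in mature fruit and at 0 elsewhere by the rule. Only the rest of the sum therefore bears on whether the subcomponent was low in the other tissues.

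Summing the unigenes of a subcomponent narrowed the spread between replicates. Over the 118 members with another unigene in the subcomponent, the highest library exceeded the lowest by a median factor of 1.74 for the member and 1.33 for the sum. The sum was less spread than the member for 86 of the 118 (72.9%). For the 12802 unigenes at 1 FPKM or more in mature fruit with such a neighbour, the medians were 1.30 and 1.22 and the sum was less spread in 62.9%. The member was a median of 22.8% of the sum. For 83 of the 118 the sum was at 1 FPKM or more in all 12 libraries of the other tissues, and for 6 it was 0 in all 12. The same shares were not taken over the 12802, so these counts are not read as particular to the members.

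**Figure D4:**
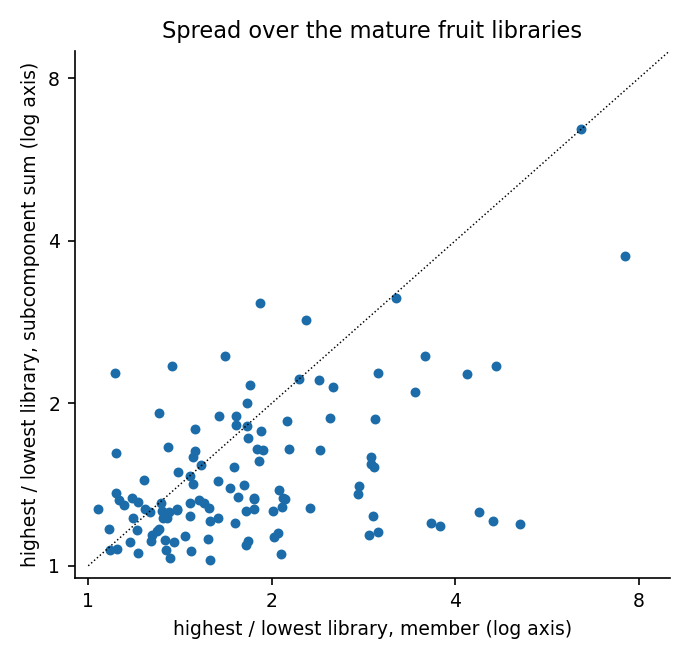
Ratio of the highest to the lowest mature fruit library for the sum of a subcomponent (vertical, log axis) against that of the member itself (horizontal, log axis), with 1 point for each of the 118 members that have another unigene in their subcomponent. The dotted line marks equal ratios, and 86 of the points lie below it.

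Individual subcomponents, chosen after their values were seen, showed the range. The member ranked 27 had 13.8, 4.74 and 2.69 FPKM in libraries 1, 2 and 3, while its subcomponent summed to 95.2, 83.3 and 79.7 FPKM in the same libraries and to 47.0 to 65.7 FPKM in the other 12. The member varied 5.11-fold and the sum 1.19-fold. The member ranked 4 was 99.7% of its subcomponent, and there the sum varied as the member did, by a factor of 6.46.

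The members ranked 8 and 10, likewise described after their values were seen, had mates that were much higher in mature fruit than in the other tissues. The member ranked 8 had 21.1, 13.5 and 7.05 FPKM in libraries 1, 2 and 3. In its subcomponent 1 mate was at 656, 1490 and 1534 FPKM in the same libraries, at 6.71 ± 0.271 FPKM in young fruit and at 0.242 to 0.336 FPKM on average in the other tissues. The member was therefore 1.11% of its subcomponent, and it was highest in the library where this mate was lowest. Against young fruit the mate was higher by 7.40 on the log2(FPKM + 0.1) scale (SE 0.29, limma with Benjamini-Hochberg adjustment, adjusted p = 3.42e-10). The member ranked 10 had 21.3, 8.01 and 4.87 FPKM and was 1.94% of a subcomponent that summed to 503, 622 and 633 FPKM. The main mate there was at 480 ± 53.9 FPKM in mature fruit, 52.0 ± 4.70 in young fruit, 24.1 ± 9.08 in stem, 2.77 ± 0.897 in flower and 1.29 ± 0.764 in leaf (SD, n = 3 each). Against young fruit it was higher by 3.20 on the same log2 scale (SE 0.35, limma adjusted p = 4.34e-06).

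The mates entered through their component and not through high or low values of their own, so their differences between tissues were tested. Their components were chosen through the members' values, and unigenes that met the rule were left out of the mates. The calls are therefore not independent of the rule. Across all tissues, 51175 unigenes passed the filter of more than 0.1 FPKM in at least 3 libraries, among them all 154 members, which the rule itself ensures, and 804 of the 883 mates. For a call, limma had to give an adjusted p no higher than 0.01 and a change of at least 1 on the log2(FPKM + 0.1) scale.

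Between the fruit stages, 101 mates (12.6%) were higher in mature than in young fruit and 93 (11.6%) were lower. Of all unigenes tested, 8.06% were higher and 22.1% were lower. The mates were thus called lower in mature fruit about as often as higher, whereas over all unigenes lower calls prevailed. All unigenes include those alone in their component (33.9% of the 63727), whereas a mate never is. Shares over unigenes in components of 2 or more were not computed here or for the other tissues. The median log2 change was 0.04 for the mates and -0.12 for all. The gap in lower calls depended on low values. With a pseudocount of 1, 8.96% of the mates were higher and 6.97% lower, against 4.88% and 8.58% of all, and with a filter of 1 FPKM in at least 3 libraries 15.6% were higher and 14.1% lower, against 10.3% and 19.1%.

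Against leaf, 181 mates (22.5%) were higher in mature fruit and 129 (16.0%) lower, beside 18.2% and 18.8% of all unigenes. Against stem, 121 (15%) were higher and 115 (14.3%) lower, beside 12.3% and 17.1%. Against flower, 132 (16.4%) were higher and as many lower, beside 13.4% and 20.5%. The share of mates called higher was above the share of all unigenes by a few percentage points, and by less without mature fruit library 1. The shares of mates and of all were then 20.4% and 18.5% against leaf, 13.1% and 12.5% against stem, 15.2% and 13.9% against flower, and 10.7% and 8.0% against young fruit. The comparisons share the mature fruit libraries, so they are not separate evidence.

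Higher in mature fruit than in each of the other 4 tissues were 63 mates (7.84%) in 44 components, beside 4.85% of all unigenes, and without mature fruit library 1 the shares were 6.84% and 5.31%. Lower than in each were 46 mates (5.72%) in 37 components, beside 5.39%. Mates of 1 component moved in both directions at times. In 64 components a mate was higher in mature than in young fruit, in 57 a mate was lower, and in 27 both were found. Such counts were not made over other components, so they are not read as particular to those of the members.

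**Figure D5:**
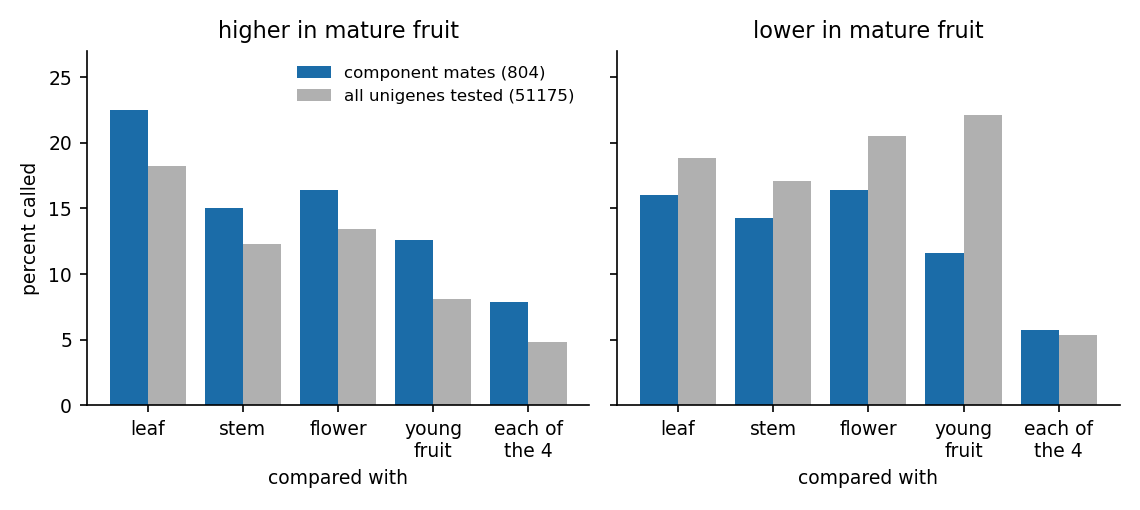
Percent of the 804 tested mates (blue) and of all 51175 tested unigenes (grey) called higher (left) or lower (right) in mature fruit than in leaf, stem, flower, young fruit or each of the 4, by limma at an adjusted p of at most 0.01 and a log2 change of at least 1. Mates called lower than in young fruit were 11.6%, against 22.1% of all, shares that fall to 6.97% and 8.58% with a pseudocount of 1 in place of 0.1. The grey set includes unigenes alone in their component.

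Some mates mirrored the members. Of the 883 mates, 6 (0.680%) were at 1 FPKM or more in all 12 libraries of the other tissues and at 0 in all 3 mature fruit libraries, as were 103 of the 42094 unigenes (0.245%) in components of 2 or more. The 6 lay in 5 components, and 5 of them shared the member's subcomponent. DN144285_c0_g10 was the mate with the largest fall from young fruit at a pseudocount of 0.1. It was at 13.5 ± 0.902 FPKM in young fruit, 5.40 ± 0.905 in flower, 6.10 ± 1.63 in stem and 5.66 ± 1.82 in leaf (SD, n = 3 each). In all mature fruit libraries it was listed at 0 (limma adjusted p = 8.36e-11 against young fruit). This mate was picked for that fall, so the p-value gives the fall no separate support. In its subcomponent lay the member ranked 88, with 3.81, 3.22 and 1.90 FPKM in mature fruit libraries 1, 2 and 3. One unigene was thus listed wherever the other was at 0. The sum of their subcomponent was 25.2, 20.6 and 19.9 FPKM in mature fruit and 23.01 to 41.1 FPKM elsewhere.

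The member ranked 13, with 11.02, 10.9 and 8.91 FPKM, had a pair of such mates in its subcomponent. One ran from 1.96 to 4.47 FPKM and the other from 3.41 to 5.26 FPKM over the 12 other libraries. Their subcomponent summed to 35.5, 27.8 and 34.5 FPKM in mature fruit and to 34.8 to 51.5 FPKM elsewhere. The remaining mates of this kind lay in the components of the members ranked 93, 132 and 147, and had medians of 8.21, 4.85 and 8.20 FPKM over the other 12 libraries. How reads were divided between the unigenes of a component was not tested.

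DN144695_c2_g2, the mate with the next largest fall at that pseudocount, kept a trace in mature fruit. The order of the falls depends on the pseudocount, since with 1 in its place the log2 change from young fruit was -5.23 for DN144695_c2_g2 and -3.86 for DN144285_c0_g10. It was at 0.272 ± 0.118 FPKM in mature fruit, beside 46.8 ± 4.24 in young fruit, 187 ± 6.18 in flower, 47.1 ± 5.89 in stem and 15.7 ± 1.11 in leaf (SD, n = 3 each). Against young fruit the log2 change was -7.03 (SE 0.18, limma adjusted p = 1.05e-11), and against flower it was -9.02 (limma adjusted p = 4.67e-13). DN144695_c2_g2 too was picked for its fall from young fruit, so the p-value against young fruit gives that fall no separate support. The member of its component, ranked 52, lay in another subcomponent and had 3.48, 5.69 and 5.42 FPKM in mature fruit. Its level was far below that of this mate in the other tissues.

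Among the mates 1 was a listed MYB. DN147925_c5_g4 was annotated as MYB90-like, where MYB90 of Arabidopsis is an activator of anthocyanin synthesis. It was at 14, 14.8 and 12.2 FPKM in the 3 flower libraries, at 0 in young fruit and at 0, 0.0557 and 0 FPKM in mature fruit, with means of 0.0604 FPKM in leaf and 0.0687 FPKM in stem. Against flower its log2(FPKM + 0.1) in mature fruit differed by -6.89 (SE 0.33, limma adjusted p = 1.07e-09), and it did not pass the test against the other tissues. The member of its component, ranked 33, lay in another subcomponent and had 7.83, 5.80 and 5.96 FPKM in mature fruit libraries 1, 2 and 3.

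In the 9 components with a pair of members, the higher member exceeded the lower by a factor of 1.02 to 4.45 in mean FPKM. The same mature fruit library was highest for both members in 3 of the 9 pairs. The members ranked 9 and 42 were one of these, with 27.3, 6.13 and 4.61 FPKM and 8.37, 4.36 and 4.87 FPKM in libraries 1, 2 and 3. The members ranked 110 and 114 shared a subcomponent and differed in order, with 3.20, 1.54 and 2.13 FPKM in the former and 1.43, 2.53 and 2.68 FPKM in the latter. The share of pairs with the same highest library was not taken over members of different components. The 3 of 9 are therefore not read as particular to members of 1 component.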

How the data were processed

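RNA was sequenced from 5 tissues with 3 libraries each, grouped by the tissue in their labels. Trimming (Trimmomatic, per the submitters' notes) was followed by a Trinity assembly, and abundance came from Bowtie2 alignments through RSEM, all without a version given in the sources used here. The authors deposited the resulting FPKM, 1 file per library. The paper describes strand-specific libraries, with a NEBNext buffer for fragmentation, and the labels a TruSeq kit. FPKM hold no read counts, so no count test was made.

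The members, lists and tests were chosen with earlier results of these data known. Mates were tested with limma 3.58.1 in R 4.3.3 on log2(FPKM + 0.1), with 1 mean per tissue over all 15 libraries, a prior variance that follows the level, and Benjamini-Hochberg adjustment over all unigenes tested. The script was tested on simulated data. Tables used pandas 2.3.3 and numpy 2.4.6 under Python 3.11.15, and figures matplotlib 3.10.9.

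Named were the member with the highest mean, the member with the largest ratio between mature fruit libraries, the 2 mates that fell most from young fruit at a pseudocount of 0.1, and listed MYBs. Alternatives were other minima, pseudocounts, filters and prior variance, median-of-ratios scaling, the replicate number as a block, and each library left out. Values of insect-matched MYBs were the only ones looked at for other organisms, and they cannot show material that holds no such MYB.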

Additional observations from a re-analysis of the deposited data

How the results depend on the processing

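The number of members and their components depended on the rule. A minimum of 0.5, 2 or 5 FPKM in each mature fruit library gave 263, 93 or 25 members, and any value above 0 gave 634. The share with other unigenes in the component was 100% at 2 and at 5 FPKM and 66.6% for any value above 0. Shares over other unigenes at these minima were not taken. Leaving out 1 library gave 155 to 1018 members and a share of 35.0% to 93.5%, where 1018 members and 35.0% were reached without mature fruit library 1. Without 1 of the 12 other libraries, 155 to 186 members were found. The settings for the share, the pseudocounts tried for the named mates and the scaling of the 18941 were added after seeing the data.

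With a pseudocount of 1, 128 mates differed from young fruit and 199 from leaf, against 194 and 310 at a pseudocount of 0.1. The share of all unigenes called lower than in young fruit then fell from 22.1% to 8.58%. Leaving out 1 library gave 165 to 193 mates against young fruit, 283 to 316 against leaf, 216 to 238 against stem, 240 to 264 against flower and 55 to 63 higher than in each other tissue. With the replicate number as a block, 183, 310, 232 and 253 mates differed from young fruit, leaf, stem and flower, and 62 were higher than in each. No pairing by replicate number was seen, as deviations of libraries with the same number correlated at -0.0419 to 0.0613. Those of libraries with different numbers correlated at -0.0699 to 0.0588. A small effect of a shared plant could be missed this way, so a pairing is not excluded.

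FPKM hold no depth for a single value, so a value of 0 in the other tissues has no limit attached.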
